A study of Mus musculus with 10 samples.

Results

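KIT ligand (*Kitl*), its receptor *Kit* and 6 genes that act close to the receptor (*Mitf*, *Lyn*, *Ptpn6*, *Sh2b3*, *Gab2* and *Cbl*) were followed in the neural retinas of light-damaged mice. These 8 genes were taken by name from the 54532 genes of the RNA-seq table. KITL is a growth factor that is made as a membrane protein and can be shed from the cell surface, and KIT is the receptor tyrosine kinase that binds it. Binding joins receptors into dimers that phosphorylate each other on tyrosines, and these tyrosines then recruit Src family kinases, docking proteins, phosphatases and ubiquitin ligases. The pathway is best known from melanocytes, germ cells, blood stem cells and mast cells, and the study asked whether it protects photoreceptors.

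All retinas came from albino BALB/c mice at 2 months of age that had first spent 12 h in the dark. The 5 normal light (NL) retinas were from mice that were then kept at 200 lux, and the 5 light damage (LD) retinas from mice exposed to 15000 lux for 1 day. No allele or agent other than light differed between the groups, and BALB/c mice lack the pigment that shields the eye. The labels describe 5 replicates per group and do not say which retinas came from the same mouse, so p-values measure the spread between these samples. Whole neural retina was sequenced, so a lower level after LD can mean fewer cells of a type or less RNA per cell. A higher level can likewise mean a larger share of a cell type or more RNA per cell. In neither case can these be told apart.

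Levels are given in FPKM, the fragments of a gene per kilobase of its length, scaled to the library size, as deposited. Behind these values were 21343389 to 26832535 reads in each NL library and 18965090 to 23378090 in each LD library. In 3 pairs of retinas (NL-5 with NL-7, LD-1 with LD-7 and LD-4 with LD-6) the reads differed by a chi-square of 2.52 to 3.41 per gene, against 10.9 to 38.6 in the other 17 pairs of the same group. Sampling noise alone would give about 1, so these pairs differed by more than sampling noise. This cannot show that the retinas of a pair are independent of each other. All 10 retinas were kept as separate samples, and results with the closest pairs averaged are given beside the main ones. A call required an adjusted p under 0.01 together with more than a 2-fold difference in limma, on log2(FPKM + 0.1) of the 24508 genes that passed a filter on low values, and all 8 genes passed it. This scale understates the fold change of genes with low FPKM.

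*Kitl* mRNA rose in the LD retinas. The gene lies on chromosome 10 at chr10:100015630-100100416 (GRCm38, plus strand), and its exons cover 5911 bases. KITL occurs as a longer form, which is readily cut to a soluble ligand, and a shorter form that lacks the main cut site and stays on the membrane. The forms differ by a single coding exon, exon 6 of transcript Kitl-202 in GENCODE M21, which is absent from Kitl-201. It covers 84 bases at chr10:100080857-100080940, keeps the reading frame, and is shown because the table cannot resolve it:
Kitl exon 6: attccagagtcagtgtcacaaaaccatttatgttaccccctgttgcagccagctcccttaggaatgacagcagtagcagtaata
This exon is 1.42% of the gene length, whereas the last exon of Kitl-202 alone covers 4399 bases. The *Kitl* values are therefore sums over all forms of the transcript.

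The NL retinas had *Kitl* levels of 2.69 (NL-1), 2.19 (NL-4), 2.36 (NL-5), 2.21 (NL-7) and 2.89 FPKM (NL-8). The LD retinas had 4.05 (LD-1), 8.19 (LD-4), 7.27 (LD-6), 3.88 (LD-7) and 6.35 FPKM (LD-8). The groups did not overlap, and within LD the values fell apart, with LD-4 and LD-6 high and LD-1 and LD-7 low. The mean level went from 2.47 ± 0.308 to 5.95 ± 1.92 FPKM (SD, 5 retinas per group), a 2.41-fold ratio of means. The log2 fold change was 1.18 (standard error, SE, 0.21, 95% interval 0.73 to 1.64, adjusted p = 0.00165 in limma), and the exact two-sided permutation p was 0.00794, the smallest that 5 against 5 samples allow. The study singled out *Kitl* from this same RNA-seq, so its p-values here do not allow for that choice. The change stayed below 2-fold when LD-4 and LD-6 were left out (log2 fold change 0.89, adjusted p = 0.00691) or with a pseudocount of 1 (0.96, adjusted p = 0.00215), and with the 3 closest pairs averaged its adjusted p of 0.0101 just missed the threshold (range over all alternatives 5.24e-05 to 0.0293).

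The receptor gene *Kit* (chr5:75574916-75656722, plus strand) did not pass the test. Its NL levels were 1.36 (NL-1), 0.919 (NL-4), 1.02 (NL-5), 0.983 (NL-7) and 1.28 FPKM (NL-8), and its LD levels were 0.934 (LD-1), 1.11 (LD-4), 1.09 (LD-6), 1.16 (LD-7) and 0.782 FPKM (LD-8). The groups overlapped, with NL-1 highest and LD-8 lowest of all. The means were 1.11 ± 0.195 and 1.01 ± 0.156 FPKM (SD, 5 retinas per group), and the log2 fold change was -0.12 (SE 0.15, adjusted p = 0.627). The 95% interval ran from 0.727-fold to 1.17-fold on the log2(FPKM + 0.1) scale. Without the scaling factor per retina that the deposited values carry, the log2 fold change was 0.0044, with the opposite sign.

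Ligand and receptor were also compared within each retina, where library scaling drops out of the ratio except through the pseudocount. The size of the ratio depends on the gene lengths used, which are the same in both groups. The ratio of *Kitl* to *Kit* FPKM was 1.98 (NL-1), 2.38 (NL-4), 2.32 (NL-5), 2.24 (NL-7) and 2.26 (NL-8), and it was 4.34 (LD-1), 7.40 (LD-4), 6.68 (LD-6), 3.34 (LD-7) and 8.12 (LD-8). All LD retinas lay above all NL retinas, and the NL ratios were much tighter. On the log2 scale the ratio was 1.09 ± 0.09 under NL and 2.39 ± 0.53 after LD (SD, 5 retinas per group), a difference of 1.30 (exact two-sided permutation p = 0.00794, the smallest possible). With the closest pairs averaged the difference was 1.39 and the exact two-sided permutation p was 0.0571, the smallest that 4 against 3 samples allow. The p-values of the ratio carry the same limit as those of *Kitl*, which was chosen from these data.

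**Figure D1:**
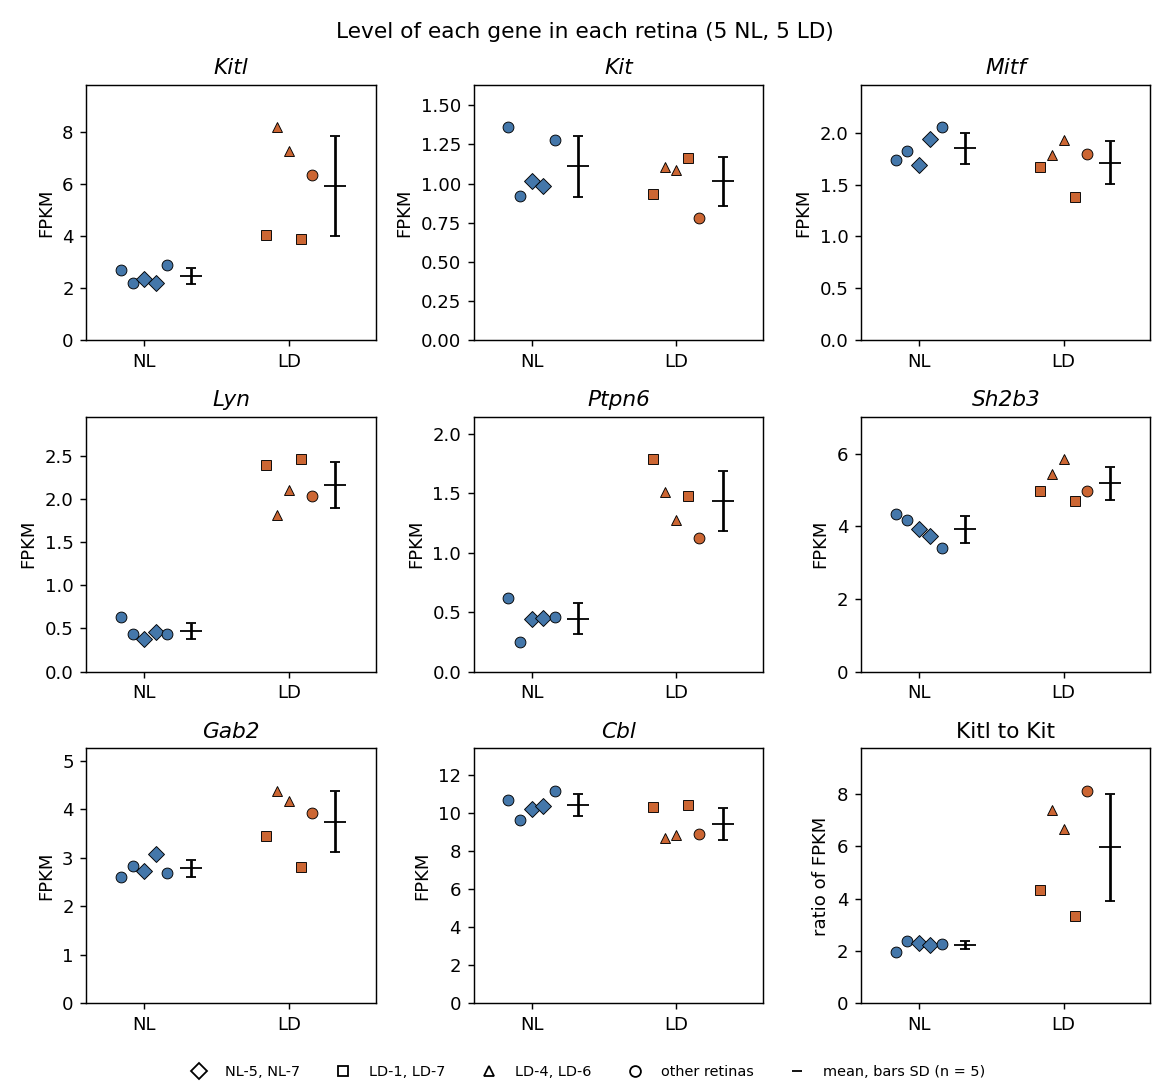
Level in FPKM (vertical axes, from 0) of each of the 8 genes in the 5 NL and 5 LD retinas, with the ratio of *Kitl* to *Kit* FPKM in the last panel. Points are single retinas, shapes mark the 3 closest pairs, and bars give mean ± SD; *Kitl*, *Lyn*, *Ptpn6* and *Sh2b3* do not overlap between the groups, and within LD the *Kitl* values of LD-4 and LD-6 (8.19 and 7.27) stand far above those of LD-1 and LD-7 (4.05 and 3.88).

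Of the genes close to the receptor, *Lyn* had the largest log2 fold change. LYN is a Src family kinase that binds phosphorylated KIT and is abundant in blood cells. *Lyn* (chr4:3678115-3813122, plus strand) was at 0.631 (NL-1), 0.439 (NL-4), 0.375 (NL-5), 0.463 (NL-7) and 0.438 FPKM (NL-8), and at 2.39 (LD-1), 1.82 (LD-4), 2.10 (LD-6), 2.46 (LD-7) and 2.03 FPKM (LD-8). The groups were well apart, and within LD the order was close to the reverse of that of *Kitl*, with LD-7 and LD-1 highest and LD-4 lowest. The mean rose from 0.469 ± 0.0964 to 2.16 ± 0.264 FPKM (SD, 5 retinas per group), a difference of 1.99 on the log2 scale (SE 0.15, 95% interval 1.67 to 2.32, adjusted p = 5.55e-06). The NL values rest on 31 to 55 reads and the LD values on 150 to 237. Several annotated RNAs overlap *Lyn* on the opposite strand, of which 9430025C20Rik had 14 to 31 reads per retina and went from 0.376 to 0.622 FPKM (log2 fold change 0.61, adjusted p = 0.00972), and whether the counting used strand is not given in the sources used here.

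Among the genes that restrain the receptor, *Ptpn6* rose, *Sh2b3* was higher by less than 2-fold, and *Cbl* did not pass the test. *Ptpn6* encodes SHP-1, a tyrosine phosphatase that dampens KIT signalling and is found mainly in blood cells. *Ptpn6* (chr6:124720707-124738714, minus strand) was at 0.617 (NL-1), 0.252 (NL-4), 0.439 (NL-5), 0.454 (NL-7) and 0.457 FPKM (NL-8), and at 1.79 (LD-1), 1.51 (LD-4), 1.28 (LD-6), 1.47 (LD-7) and 1.12 FPKM (LD-8). The groups were apart, and LD-1 was highest and NL-4 lowest. The mean rose from 0.444 ± 0.130 to 1.43 ± 0.252 FPKM (SD, 5 retinas per group), a difference of 1.52 on the log2 scale (SE 0.20, 95% interval 1.07 to 1.97, adjusted p = 0.000306). The NL values rest on 15 to 37 reads, and a pseudocount of 1 lowered the difference to 0.75 on the log2 scale, below 2-fold.

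*Sh2b3* encodes LNK, an adaptor that binds KIT and limits its signal. *Sh2b3* (chr5:121815488-121837646, minus strand) was at 4.34 (NL-1), 4.17 (NL-4), 3.93 (NL-5), 3.73 (NL-7) and 3.41 FPKM (NL-8), and at 4.97 (LD-1), 5.44 (LD-4), 5.85 (LD-6), 4.69 (LD-7) and 4.96 FPKM (LD-8). The groups did not overlap, but the lowest LD retina was close to the highest NL retina. The means were 3.92 ± 0.365 and 5.18 ± 0.461 FPKM (SD, 5 retinas per group), a difference of 0.39 on the log2 scale (SE 0.08, adjusted p = 0.00516), under the 2-fold limit. A stretch of 1006 bases of *Sh2b3* overlaps *Atxn2* on the opposite strand, which went from 7.50 to 6.74 FPKM (log2 fold change -0.15, adjusted p = 0.0317).

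CBL is the ubiquitin ligase that marks activated KIT for uptake and degradation. *Cbl* (chr9:44142976-44234049, minus strand) ran from 9.61 to 11.2 FPKM in the NL retinas, with a median of 10.4, and from 8.69 to 10.4 FPKM in the LD retinas, with a median of 8.90. The ranges overlapped through LD-1 and LD-7. The means were 10.4 ± 0.573 and 9.42 ± 0.844 FPKM (SD, 5 retinas per group), and the log2 fold change was -0.14 (SE 0.07, 95% interval -0.29 to 0.0023, adjusted p = 0.137). With LD-1 and LD-7 left out it was -0.24, and its adjusted p fell to 0.0113 (range over all alternatives 0.0113 to 0.908).

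GAB2 is a docking protein that carries PI3-kinase and the phosphatase SHP2 to the receptor complex. *Gab2* (chr7:97081586-97308946, plus strand) was at 2.61 (NL-1), 2.82 (NL-4), 2.73 (NL-5), 3.08 (NL-7) and 2.68 FPKM (NL-8), and at 3.45 (LD-1), 4.38 (LD-4), 4.18 (LD-6), 2.80 (LD-7) and 3.93 FPKM (LD-8). LD-7 fell within the NL range, and as for *Kitl*, LD-4 and LD-6 were highest. The means were 2.78 ± 0.181 and 3.75 ± 0.632 FPKM (SD, 5 retinas per group), a difference of 0.40 on the log2 scale (SE 0.12, adjusted p = 0.0261), under the 2-fold limit. Its adjusted p was above 0.05 when NL-1, NL-5, NL-8, LD-4, LD-6 or LD-8 was left out singly (0.0546 to 0.0644), and was 0.00281 without LD-7 (range over all alternatives 0.00107 to 0.179).

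MITF is the master transcription factor of melanocytes and also acts in mast cells and retinal pigment epithelium, and KIT signalling modifies it. *Mitf* (chr6:97807052-98021349, plus strand) ran from 1.69 to 2.05 FPKM in the NL retinas (median 1.82) and from 1.38 to 1.93 FPKM in the LD retinas (median 1.78). The groups overlapped, with LD-7 the lowest retina. The means were 1.85 ± 0.147 and 1.71 ± 0.206 FPKM (SD, 5 retinas per group), and the log2 fold change was -0.11 (SE 0.11, 95% interval -0.35 to 0.13, adjusted p = 0.503). Without the scaling factor per retina it was 0.016.

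Earlier results of these data were known when the 8 genes were named, so their counts are a description and their p-values do not allow for that choice. In all, 3 of the 8 genes were called higher, beside 4.13% of all genes tested, and 0 of 8 were called lower, beside 2.37%. At an unadjusted p under 0.05 in limma 0 of 8 were lower, and limma-voom on the recovered reads also called 3 higher and 0 lower. At an adjusted p under 0.05 with no minimum for the fold change, 5 of 8 were higher and 0 lower, beside 14.5% and 13.4% of all genes. The LD values lay wholly above the NL values for 4 of 8, beside 11.8% of all genes, and wholly below for 0 of 8, beside 10.6%. The median log2 fold change of the 8 genes was 0.40, and that of all genes tested was -0.01. The genes called higher were the ligand, a kinase and a phosphatase, while the receptor itself was not among them.

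**Figure D2:**
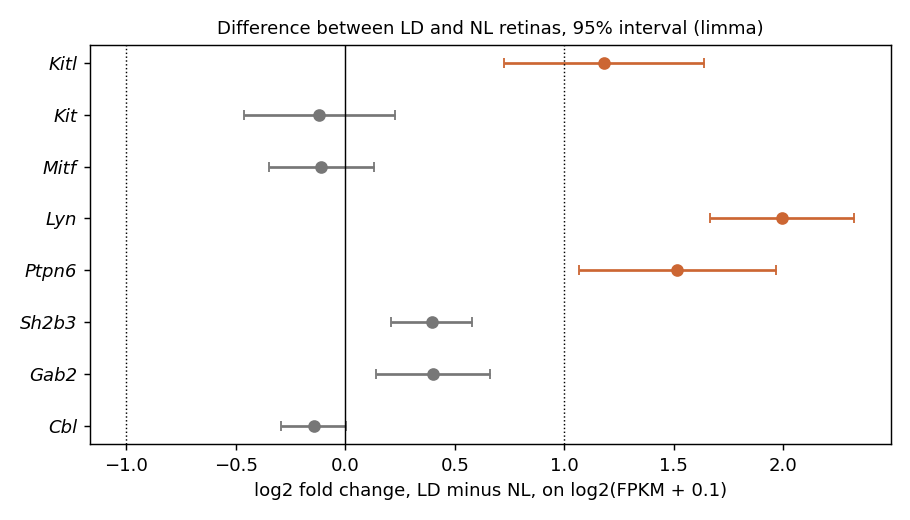
Log2 fold change of LD against NL (horizontal axis, on log2(FPKM + 0.1)) for the 8 genes, with 95% intervals from limma; dotted lines mark 2-fold and orange marks a call. *Lyn*, *Ptpn6* and *Kitl* lie at 1.99, 1.52 and 1.18, *Sh2b3* and *Gab2* near 0.40, and the intervals of *Kit* and *Mitf* include 0, as that of *Cbl* just does.

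The levels of the 8 genes can also be set beside each other within a group, since FPKM is per length. The length used is that of all annotated exons of a gene together, which can exceed that of the mRNA present. The order of genes with close levels depends on this choice. Under NL the order of mean FPKM was *Cbl*, *Sh2b3*, *Gab2*, *Kitl*, *Mitf*, *Kit*, *Lyn* and *Ptpn6*. The neighbours *Gab2* and *Kitl* overlapped, as did *Lyn* and *Ptpn6*, and all other neighbours were apart in 5 of 5 NL retinas. After LD the order was *Cbl*, *Kitl*, *Sh2b3*, *Gab2*, *Lyn*, *Mitf*, *Ptpn6* and *Kit*. *Kitl* thus stood next to *Sh2b3*, which it exceeded in 3 of 5 LD retinas. *Lyn* was above *Mitf*, and *Ptpn6* above *Kit*, in 5 of 5 LD retinas although their ranges overlapped, whereas *Ptpn6* and *Mitf* were not apart. *Kit*, at about 1 FPKM, was the lowest of the 8 genes in the mean of the LD retinas.

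The retinas also differed in markers of the cell types that a neural retina can hold, each summed over a list of 10 genes. The defining rod markers were at high levels in all retinas, with sums of 10023 to 12211 FPKM under NL and 1565 to 3061 FPKM after LD, and 10 of 10 were called lower. Mast cells, a classical KIT-bearing cell, were near the limit of detection by most of their markers. The sum was 0.322 to 1.59 FPKM under NL and 0.266 to 0.404 FPKM after LD. Of the 10 markers 7 (*Cma1*, *Mcpt4*, *Tpsb2*, *Tpsab1*, *Fcer1a*, *Ms4a2* and *Mrgprb2*) had at most 3 reads in every retina, and *Cpa3* at most 4. *Gata2*, the only marker of the list that was tested, had 10 to 31 reads (log2 fold change 0.25, adjusted p = 0.455 in limma). *Hdc*, the gene of histamine synthesis, ran from 0.0910 to 1.46 FPKM in the NL retinas and from 0.0137 to 0.0914 FPKM in the LD retinas. Melanin-related and other markers of retinal pigment epithelium, a tissue that expresses *Mitf*, summed to 55.6 to 159 FPKM under NL and 64.7 to 125 FPKM after LD, with 0 of 10 called by limma, 1 higher and 1 lower at an unadjusted p under 0.05, and 0 called by limma-voom. *Ttr* was the largest part of these sums, with means of 57.6 FPKM under NL and 68.3 FPKM after LD.

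Most markers of microglia and macrophages were higher after LD, as *Lyn* and *Ptpn6* were. Their sum was 22.0 to 38.0 FPKM under NL and 51.9 to 122 FPKM after LD, and 7 of 10 were called higher, while *P2ry12*, *Tmem119* and *Csf1r* were not. *P2ry12* had the opposite sign, with means of 2.03 and 1.32 FPKM in the NL and LD retinas (log2 fold change -0.74, adjusted p = 0.122), and at an unadjusted p under 0.05 the list had 8 higher and 1 lower. No defining marker of this list was at 0. Markers of other leukocytes summed to 0.767 to 1.53 FPKM under NL and 3.53 to 4.77 FPKM after LD, with 3 of the 7 tested called higher and *Cd3e* at no more than 1 read. *C1qa* and *C1qb* were the largest parts of the microglia and macrophage sum, with means of 10.1 and 4.46 FPKM under NL and 37.3 and 20.3 FPKM after LD. The microglia and macrophage sum therefore describes mainly these genes. Within LD, it was highest in LD-1 (122 FPKM) and LD-7 (109 FPKM), the retinas with the most *Lyn* and the least *Kitl*. The match was not complete, as LD-8 had the lowest sum (51.9 FPKM) but more *Lyn* (2.03 FPKM) than LD-4 (1.82, sum 78.3 FPKM). *Ptpn6* was highest in LD-1 (1.79 FPKM), but higher in LD-4 (1.51) than in LD-7 (1.47 FPKM). NL-1 had the highest sum (38.0 FPKM), *Lyn* and *Ptpn6* of the NL retinas. The part of these cells in the change of *Lyn* and *Ptpn6* was not tested.

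*Kitl* followed another pattern within LD. Endothelial markers summed to 40.3 to 50.0 FPKM under NL and 55.4 to 93.1 FPKM after LD, with 0 of 10 called by limma or limma-voom and 3 higher at an unadjusted p under 0.05. LD-4 (92.8 FPKM) and LD-6 (93.1 FPKM) stood above LD-1 (55.4), LD-7 (55.6) and LD-8 (59.2 FPKM). *Kdr* was the largest part of these sums, with a mean of 30.0 FPKM under NL and 49.8 FPKM after LD (38.1 to 64.4 FPKM in the LD retinas). The endothelial sum therefore describes mainly this gene. Rod markers were lowest in LD-4 (1565 FPKM) and LD-6 (1674 FPKM), where *Kitl* was highest, but highest within LD in LD-8 (3061 FPKM), where *Kitl* was also high. Müller glia markers summed to 1150 to 1378 FPKM under NL and 637 to 891 FPKM after LD, with 1 called higher and 1 lower. The gene called lower, *Glul*, was the largest part of the NL sums, with means of 711 FPKM under NL and 165 FPKM after LD. The fall of the sum therefore describes mainly this gene. *Vim*, the gene called higher, had means of 25.5 and 104 FPKM. With no minimum for the fold change, 3 of 10 were higher and 3 lower (adjusted p below 0.05). The median log2 fold change of the list was 0.03. The 2 highest LD sums of this list were also in LD-4 and LD-6. Amacrine, bipolar and ganglion cell markers summed to 354 to 427 and 327 to 425 FPKM, with 0 of 10 called by limma or limma-voom and 1 lower at an unadjusted p under 0.05. The part of these cell types in the level of *Kitl* was not tested.

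**Figure D3:**
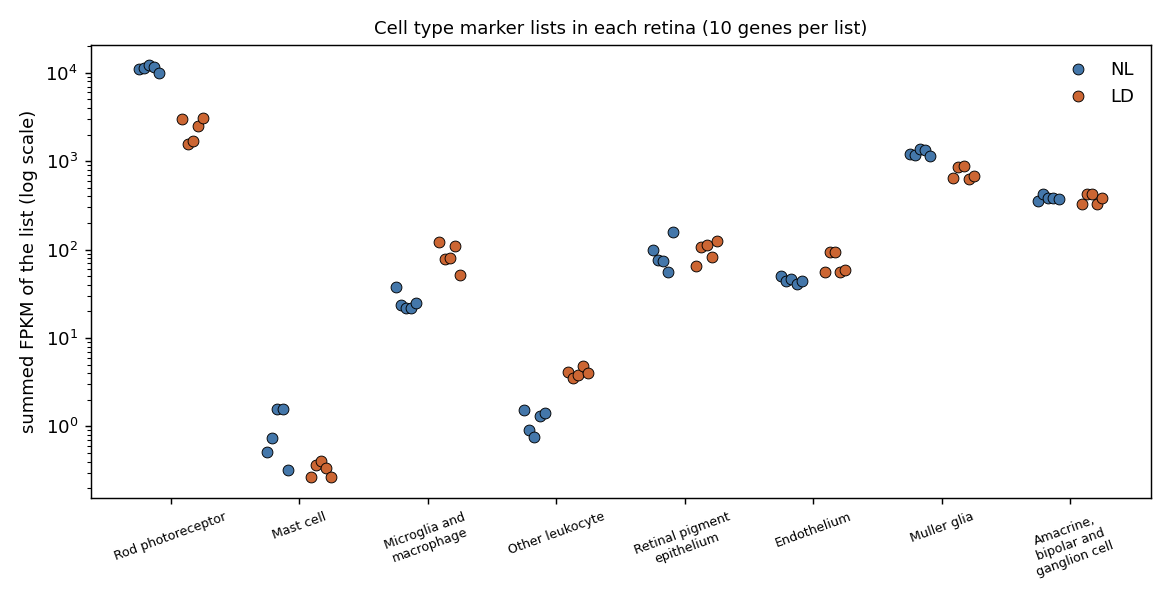
Summed FPKM (vertical log axis) of 8 cell type marker lists in each NL and LD retina; each point is 1 retina. Rod sums fall from at least 10023 to at most 3061, microglia and macrophage sums rise from at most 38.0 to at least 51.9, and mast cell sums stay at or below 1.59.

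The rest of the pathway was examined through 9 lists with 93 genes, of which 89 were tested and *Adam33*, *Cblc*, *Tfec* and *Pax3* were not. A gene that is high in LD alone can pass the filter on low values, so the counts describe the lists and support nothing further. Of the 89 genes 12 (13.5%) were called higher and 1 (1.12%) lower, beside 4.13% and 2.37% of all genes tested. At an adjusted p under 0.05 alone 36 were higher, 10 lower and 43 neither, beside 14.5% higher and 13.4% lower of all genes. Their median log2 fold change was 0.17, beside -0.01 for all genes.

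Upstream of the receptor, the proteases that can cut KITL from the membrane were not called, with 0 of 2 past an unadjusted p of 0.05 in limma and 0 called by limma-voom. MMP9, which releases soluble KITL in bone marrow, was the tested protease with the larger difference, and its gene had 5.11 ± 0.742 FPKM in the NL and 4.75 ± 0.144 FPKM in the LD retinas (SD, 5 retinas per group), a difference of -0.09 on the log2 scale (adjusted p = 0.486). Receptors and ligands of the same receptor class as KIT and KITL had 2 of 11 called higher and a median log2 fold change of 0.22. *Csf1*, the ligand of the macrophage receptor CSF1R, was at 1.42 to 1.76 FPKM in the NL retinas and 7.55 to 9.91 FPKM in the LD retinas, a log2 fold change of 2.42 (SE 0.09, adjusted p = 4.66e-08). *Pdgfb*, a growth factor for pericytes, went from 0.483 ± 0.0781 to 1.15 ± 0.386 FPKM (SD, 5 retinas per group), a difference of 1.06 on the log2 scale (adjusted p = 0.00551). The receptor genes *Csf1r*, *Flt3*, *Pdgfra* and *Pdgfrb* were not called, and *Csf1r*, which is also on the microglia list, had a log2 fold change of 0.74 (adjusted p = 0.0412).

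Of the 12 Src family and other cytoplasmic kinases 4 were called higher and 8 were higher at an adjusted p under 0.05, with a median log2 fold change of 0.64. *Fgr*, a Src family kinase known from myeloid cells like *Lyn*, was at 0.0244 to 0.221 FPKM in the NL retinas and at 1.40 to 3.72 FPKM in the LD retinas. Its log2 fold change was 3.65 (SE 0.37, adjusted p = 5.14e-05). It was highest in LD-1 and LD-7, as *Lyn* was. *Lck* and *Btk*, kinases of lymphocytes and other blood cells, were also called, at means below 1 FPKM, while *Src* itself went from 13.9 to 20.8 FPKM, a log2 fold change of 0.57 (adjusted p = 0.00138) under the 2-fold limit. The microglia and macrophage sums given above moved in the same direction, and their part here was not tested.

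Among 15 adaptors and docking proteins, with a median log2 fold change of 0.11, *Dok1* was the one called, and its product dampens receptor signalling. It went from 0.481 ± 0.138 to 1.12 ± 0.192 FPKM (SD, 5 retinas per group), a difference of 1.10 on the log2 scale (adjusted p = 0.00208). In the PI3-kinase, AKT and phospholipase C list, with a median log2 fold change of 0.10, 1 of 11 was called, *Plcg2*, a phospholipase of blood cells, from 0.378 ± 0.147 to 1.05 ± 0.137 FPKM (SD, 5 retinas per group), a difference of 1.31 on the log2 scale (adjusted p = 0.000939). Of the 10 genes from RAS to ERK 0 were called by limma or limma-voom, 4 were higher and 3 lower at an unadjusted p under 0.05, and the median log2 fold change was 0.03. The largest difference there was that of *Nras*, from 5.87 ± 0.899 to 9.40 ± 0.363 FPKM (SD, 5 retinas per group), a difference of 0.68 on the log2 scale (adjusted p = 0.000454).

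SOCS3 and SOCS1 block cytokine signalling through JAK and STAT proteins, and of the 4 SOCS genes on the list of inhibitors theirs were called, while *Socs5* and *Socs6* were not (log2 fold changes 0.17 and 0.0080). *Socs3* was at 1.82 to 2.57 FPKM in the NL retinas and at 70.8 (LD-1), 37.5 (LD-4), 40.6 (LD-6), 72.5 (LD-7) and 33.7 FPKM (LD-8), a log2 fold change of 4.46 (SE 0.22, adjusted p = 3.21e-07). Its highest LD values were in LD-1 and LD-7, the retinas with the least *Kitl*. *Socs1* rose from 0.214 ± 0.0550 to 2.62 ± 0.600 FPKM (SD, 5 retinas per group), a difference of 3.10 on the log2 scale (adjusted p = 1.57e-06), and was highest in LD-6 and lowest in LD-1. The STAT factor gene *Stat3* rose from 12.3 ± 2.10 to 44.1 ± 3.96 FPKM (SD, 5 retinas per group), with a log2 fold change of 1.85 (adjusted p = 1.25e-06). By contrast *Stat5b*, whose product is a STAT factor downstream of KIT in blood cells, was at 16.9 and 17.1 FPKM, a log2 fold change of 0.02 (adjusted p = 0.861).

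In the list of other phosphatases, ubiquitin ligases and inhibitors, 2 of 14 tested were called higher and 1 lower, with a median log2 fold change of 0.32. The lower one was *Sla2*, named after its value was seen, which encodes an adaptor that limits immune receptor signalling and went from 0.552 ± 0.197 to 0.190 ± 0.0844 FPKM (SD, 5 retinas per group), a difference of -1.17 on the log2 scale (adjusted p = 0.00713). Its call was lost when NL-1, NL-4, NL-7, NL-8, LD-1, LD-7 or LD-8 was left out singly. Of the 10 tested MiT family and melanocyte genes, which include relatives and targets of *Mitf*, 0 were called by limma or limma-voom and 2 were higher at an unadjusted p under 0.05, and their median log2 fold change was -0.02. The largest difference there was in the melanosome gene *Pmel*, with a log2 fold change of -1.12 (adjusted p = 0.208), where NL-8 was at 8.69 FPKM and the other NL retinas at 0.596 to 2.02 FPKM. *Pmel* is also on the pigment epithelium list, whose sum was highest in NL-8 (159 FPKM).

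**Figure D4:**
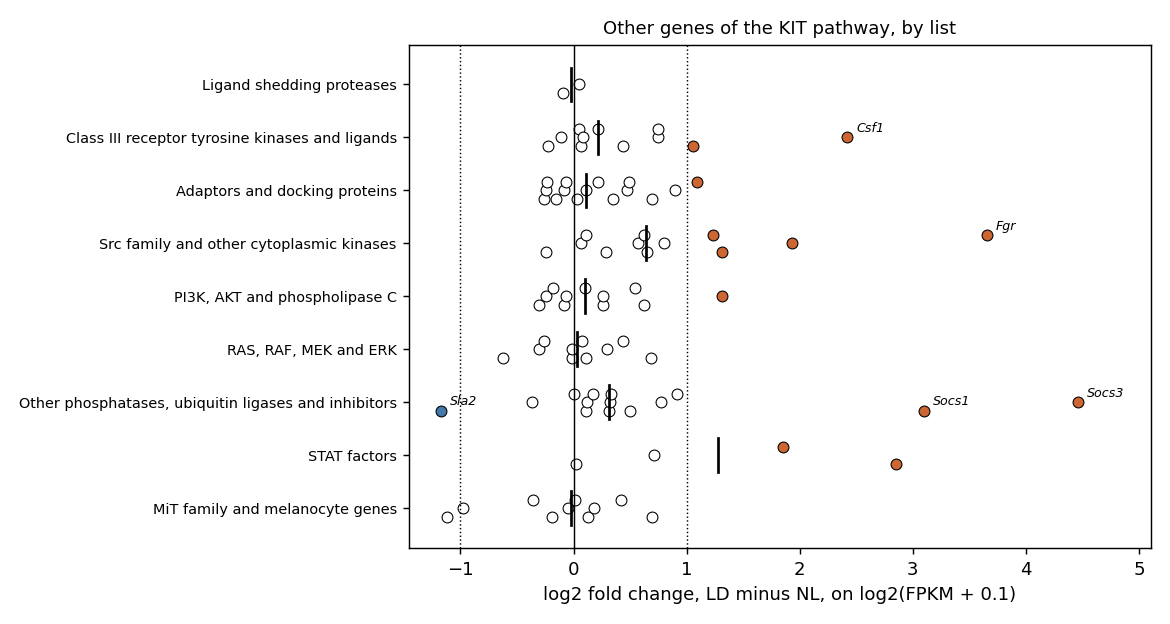
Log2 fold change of LD against NL (horizontal axis, on log2(FPKM + 0.1)) of the 89 tested pathway genes in their 9 lists; each point is a gene, orange called higher, blue called lower, open not called, with some of the called genes labelled, and the vertical bar is the list's median. *Socs3* (4.46), *Fgr* (3.65) and *Socs1* (3.10) lie farthest to the right, and only *Sla2* (-1.17) was called lower.

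The genes whose level varied most like that of *Kitl* or *Kit* from retina to retina were sought among 12427 protein-coding genes, by Pearson's r of log2(FPKM + 0.1) over the 10 retinas after each group's mean was taken off. These values are descriptions over retinas that share library, depth and group. For *Kitl* they were *Sorbs2* (r = 0.980), *Anxa1* (r = 0.978) and 1700025G04Rik (r = 0.978). None of the 3 was called between LD and NL, with log2 fold changes of 0.06, 0.06 and 0.12, so they shared the spread within groups but not the difference between them. *Kitl* varied more in LD (SD 1.92 FPKM) than in NL (SD 0.308 FPKM). Its r values therefore rest mostly on LD, which holds the close pairs LD-1 with LD-7 and LD-4 with LD-6. For *Kit* the genes most alike were *Clcn4* (r = 0.946), *Tmem94* (r = 0.942) and *Rrp36* (r = 0.932), with log2 fold changes of -0.10, -0.08 and -0.01.

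Promoter sequences were looked up for the genes that rose and for the receptor, from RefSeq on GRCm38.p6, as windows of 300 bases from 250 before to 50 after each start site. Of the 8 genes 6 had an entry, with 9 windows between them, and *Lyn* and *Gab2* are named only. The lines below give the stretch of the *Kitl* promoter around its TATA box and the parts of the *Ptpn6* and *Kit* promoters that lie before the annotated exons, each 5′ to 3′ on the gene's strand. Capitals mark a TATA box (TATAAA) or a GC box (GGGCGG) on either strand.
Kitl, chr10:100015772-100015801, plus strand: tggcGGGCGGGCGGgagggagctgTATAAA
Ptpn6, chr6:124738715-124738959, minus strand: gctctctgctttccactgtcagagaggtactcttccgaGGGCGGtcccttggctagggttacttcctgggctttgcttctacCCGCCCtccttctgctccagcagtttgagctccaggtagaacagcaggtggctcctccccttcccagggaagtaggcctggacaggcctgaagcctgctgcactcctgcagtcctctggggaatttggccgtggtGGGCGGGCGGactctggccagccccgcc
Kit, chr5:75574737-75574915, plus strand: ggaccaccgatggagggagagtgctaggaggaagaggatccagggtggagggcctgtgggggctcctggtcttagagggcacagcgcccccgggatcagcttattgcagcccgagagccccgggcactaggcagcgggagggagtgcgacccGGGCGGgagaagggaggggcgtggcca
The *Kitl* stretch holds a TATA box that begins 25 bases before the start site and 2 overlapping GC boxes upstream of it. This RefSeq start site lies downstream of the *Kitl* start in the table, so the stretch is inside the gene as the table places it. The *Ptpn6* stretch holds 4 GC boxes and no TATA box, and the *Kit* stretch 1 GC box.

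Across all 32851 promoters of the same length, 13.6% hold TATAAA and 35.7% hold GGGCGG, and of the 9 windows 2 (*Kitl* and *Mitf*) and 6 hold them. The AP-1 letters TGANTCA and the STAT letters TTCNNNGAA are in 7.81% and 8.30% of all promoters and in 0 of the 9 windows. The letters CACGTG (7.15% of promoters) are in the *Sh2b3* window, CATGTG (14.2%) in none, TAATCC (7.06%) in a window of *Mitf* and in that of *Ptpn6*, TGACNNNGC (12.4%) in a window of *Mitf*, and GAGGAAG (13.6%) in both windows of *Kit*, which overlap. Both strands were searched throughout, and these matches describe letters in a window.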

How the data were processed

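The authors deposited 1 table of FPKM values per retina and gene, normalized by the sequencing company. The submitters' notes name Bowtie2 2.0.6, TopHat2 2.0.9 and build mm8, but the table's positions of all 8 genes are those of GENCODE M21 on GRCm38. The counting program, annotation and use of strand are not given in the sources used here. FPKM times gene length gave whole reads (within 0.01) for 100% of values. The library size in the FPKM carries a factor of 0.951 to 0.968 under NL and 1.04 to 1.07 after LD.

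LD was compared with NL by limma 3.58.1 (R 4.3.3) on log2(FPKM + 0.1), with an intensity trend and no block, over genes that reached 0.1 FPKM in 5 or more retinas, with Benjamini-Hochberg adjustment over 24508 genes. Single values used exact permutation tests over retinas (scipy 1.17.1). In simulated reads the model recovered 192 of 200 changes that had been set, with 2 false calls. The simulated retinas were independent and had the same dispersion for all genes. This result therefore does not cover the close pairs or the unequal spread of the real retinas. Thresholds follow the study's text. Members and lists were chosen with earlier results of these data known. Genes named from a list are up to 3 called ones with the largest change and a group mean of 1 FPKM or more, or else the gene with the largest change. Other pathway genes named (*Lck*, *Btk*, *Src*, *Sla2*, *Stat5a*, *Stat5b* and the receptor genes) were chosen after their values were seen. Protein sequences were not used here. Some genes are not reported here.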

Additional observations from a re-analysis of the deposited data

How the results depend on the processing

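Of 24 alternatives, *Lyn* kept its call and *Kit*, *Mitf*, *Sh2b3*, *Gab2* and *Cbl* stayed uncalled in all, with *Kitl* positive throughout. With a pseudocount of 1, 1 of the 8 genes was called higher, the *Kitl* and *Ptpn6* log2 fold changes were 0.96 and 0.75, and 6 pathway genes were called higher. Pathway calls numbered 6 at a mean of at least 1 FPKM (where *Ptpn6* was not tested), and 7 with the closest pairs averaged (*Kitl* 1.18, ratio to *Kit* 1.39) or, chosen after seeing the data, without LD-4 and LD-6 (*Kitl* 0.89). Leaving out 1 retina gave 8 to 12 pathway genes higher and 0 to 1 lower. The 1 lower call became 0 with a pseudocount of 1, no filter, a mean of at least 1 FPKM, TPM, no factor per retina, the shared replicate numbers, the closest pairs averaged, or without LD-1 and LD-7. Without the factor per retina *Kit* (0.0044) and *Mitf* (0.016) changed sign, and the median of all genes moved by 0.12 (TPM 0.10). With each retina left out the *Kitl* log2 fold change was 1.05 to 1.32 and the *Kitl* to *Kit* difference 1.18 to 1.48.

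The replicate numbers 1, 4, 7 and 8 occur in both groups, and deviations of same-numbered retinas correlated at only -0.089 to 0.066. These correlations show no strong shared profile, but they cannot show that the numbers carry no batch. With the replicate block 1 of the 8 genes and 7 pathway genes were called higher and 0 pathway genes lower. In that fit *Kitl* was at 1.08 (adjusted p = 0.0293, and 0.0142 on these 8 retinas with no block), *Ptpn6* at 1.56 (adjusted p = 0.0131), and the *Kitl* to *Kit* difference was 1.25 (exact p = 0.125, the smallest that 4 pairs allow). Over all genes, 1013 were called higher and 582 lower, against 550 and 258 with the replicate block, 504 and 312 with a pseudocount of 1, 638 and 462 at a mean of at least 1 FPKM, 710 and 366 with the closest pairs averaged, and 835 and 368 without LD-4 and LD-6. The causes were not tested. The planned count models and voom with TMM were not run, since the table holds FPKM; voom with the deposited library sizes was used instead, chosen after seeing the data. Few reads limit *Lyn*, *Ptpn6* and the kinases below 1 FPKM.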
